A study of Salmo salar with 96 samples.

Results

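The gonadotropin-releasing hormone (GnRH) family of this Atlantic salmon panel comprised the 8 genes whose symbols start with *GNRH*, out of 220 genes on the panel. They were 2 hormone genes, *GNRH* and *GNRH1*, and 6 receptor genes, *GNRHR1a*, *GNRHR1b*, *GNRHR4a*, *GNRHR4b*, *GNRHRa* and *GNRHRb*. All 8 were followed in all 96 samples, and the choice used only the symbols, not the measured values. GnRH is a short peptide released by neurons of the hypothalamus, which in teleost fish reach the pituitary directly. It binds G protein-coupled receptors on gonadotropes, which then secrete the follicle-stimulating and luteinizing hormones that drive steroid production and germ cell growth in the gonads. Fish carry several forms of the hormone, and salmonids hold many receptor copies because their genome was duplicated. The GnRH genes and their receptors are also known to be transcribed in the gonads of many vertebrates.

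Transcripts were counted with nCounter, in which a barcoded probe pair binds each transcript and the barcodes are counted without amplification. Whole hatchery-reared fish gave 18 samples, namely 4 embryos of 186 degree days (°d, the sum of daily water temperatures), 4 embryos of 258 °d, 4 alevin of 436 °d and 6 fry, of which 2 were of 1119 °d and 4 of 1320 °d. The remaining 78 samples were blood of 4 fry of 2212 °d and 74 tissue samples of 8 parr of 3 years, in 15 tissues once adipose fin and tail fin, each sampled in 1 fish, are counted as fin. Embryos, alevin, fry and hatchery parr were of the Neva population, and wild parr were from the Inarijoki. Hatchery fish 1 and 2 were males and fish 3 and 4 females, all immature, on the normal diet. Wild fish 5 and 6 were immature males and wild fish 7 and 8 mature males. Of the fry, 2 of 1320 °d and 2 of those bled were on the low fat diet, and the others were on the normal diet. Maturity was therefore compared in males alone, and sex in hatchery parr alone.

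Levels are normalized counts, that is raw counts scaled so that 6 reference genes have the same geometric mean in every sample. A mean of 20 normalized counts was taken as the detection level, as in the methods of the study. The sum of counts in a sample ran from 201761 to 480697 for whole fish and from 47598 to 949899 for tissues. The 8 negative control probes, which have no target, averaged 3.38 to 47.4 after the same scaling in the samples used, and reached 20 or more in 8 of them. Scaling factors were above 3.0 in 2 samples, muscle from hatchery fish 4 and liver from wild fish 5, which were left out of levels and tissue tests. Different probes bind with different efficiency, so no gene's level is ranked against another gene's. No sequence is shown for the probes. RefSeq (Ssal_v3.1) held 4 of the 8 transcripts, of which only *GNRH* had a gene symbol, *gnrh3*, with sGnRH, the salmon form, among its synonyms. The probes of *GNRH1*, *GNRHR1a*, *GNRHRa* and *GNRHRb* are named as the panel names them.

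Most of the family was close to background in most samples. Of 120 means of a family gene in a tissue, 28 reached 20 normalized counts, and of 32 means in a stage, 8 did. *GNRH* reached 20 in 3 of 96 samples, *GNRHR1b* in 7, *GNRHR4a* in 10, *GNRHRa* in 13, *GNRHR4b* in 21, *GNRHR1a* in 22, *GNRHRb* in 36 and *GNRH1* in 42. By tissue means, *GNRH* was detected in 1 of 15 tissues, *GNRHR1b* in 2, *GNRHR1a*, *GNRHR4a* and *GNRHRa* in 3 each, *GNRHRb* in 4, *GNRHR4b* in 5 and *GNRH1* in 7. In the plot of all members by tissue, the few tissues above the dashed line differ from gene to gene.

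**Figure D1:**
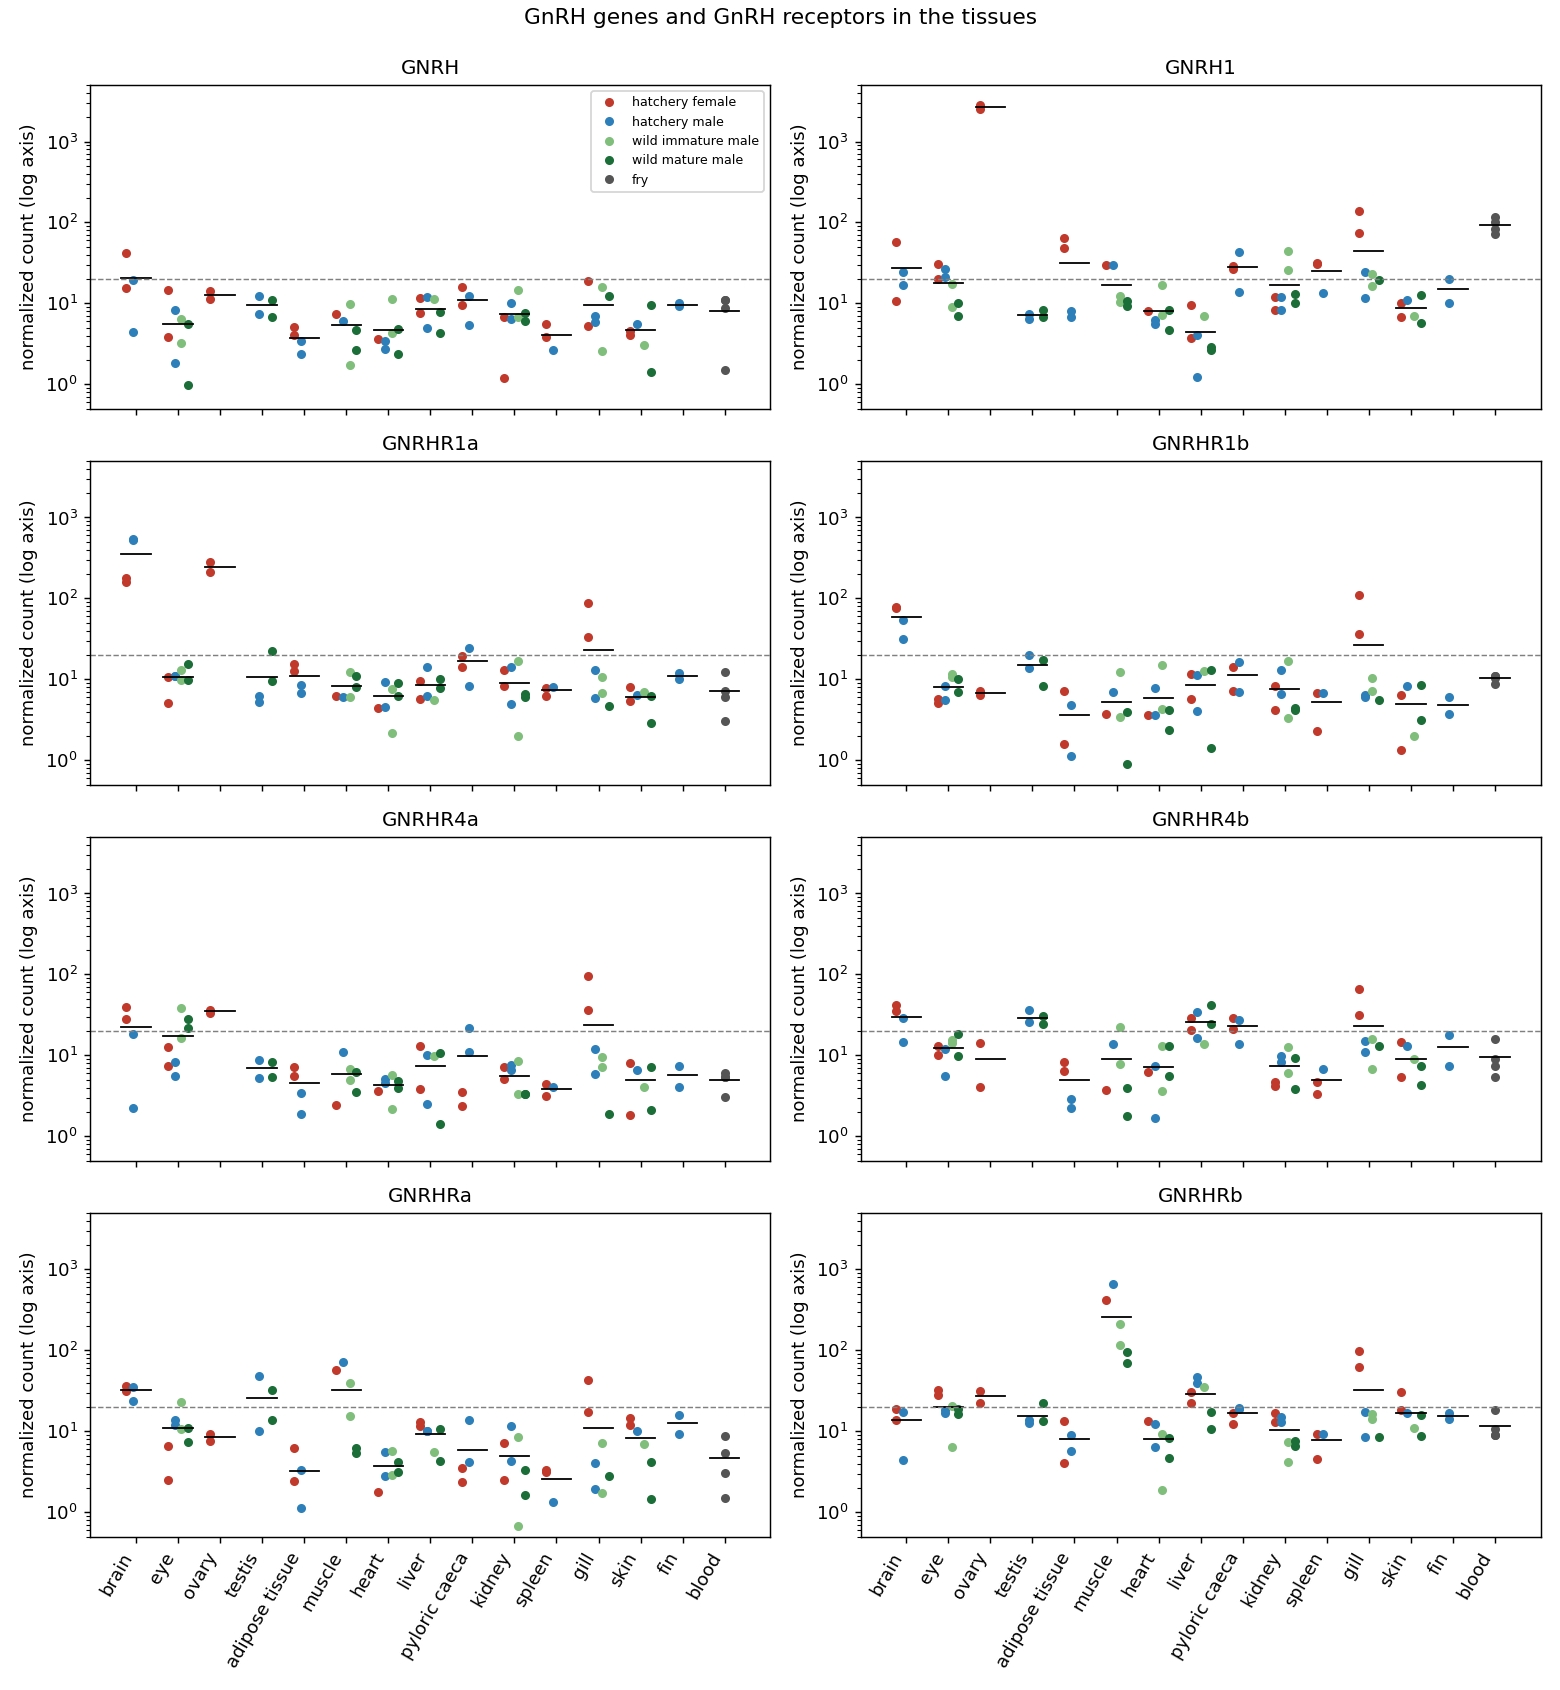
Normalized counts (log axis) of the 8 GnRH family genes in 15 tissues, 1 panel per gene and 1 point per sample, coloured by hatchery females, hatchery males, immature and mature wild males and fry. Black lines are tissue means and the dashed line is 20 normalized counts. *GNRH1* in the 2 ovaries (2796 and 2545) stands clear of its other tissues. *GNRHRb* has its highest mean in muscle (69.6 to 660), which overlaps gill, where the highest value is 96.9. *GNRH* passes 20 in 1 brain only.

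Of the hormone genes, *GNRH1* had the larger excess in one tissue. In ovary it measured 2796 normalized counts in hatchery fish 3 and 2545 in fish 4 (2670 ± 178, SD, n = 2). Against the mean of the other 14 tissues this was a log2 difference of 7.20 (SE 0.30, adjusted p = 2.49e-33, edgeR's quasi-likelihood test with Benjamini-Hochberg adjustment over all panel genes tested, at a threshold of 0.05). Ovary was higher than each of the 14 other tissues. In a bulk sample, more cells of a type and more RNA per cell cannot be told apart. Blood came next in the order of means, with 71.8, 101, 117 and 82.8 normalized counts in the 4 fry, with a mean of 93.3 ± 20. Ovary exceeded blood by 4.84 on the log2 scale (adjusted p = 1.95e-09), and blood exceeded the mean of the other tissues by 2.02 (SE 0.34, adjusted p = 6.62e-07).

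The negative controls in blood were between 9.72 and 16.3, so all 4 blood values of *GNRH1* were well over them. The fry of the normal diet gave 71.8 and 101 and those of the low fat diet 117 and 82.8, and the diets overlapped. Blood was taken only from fry, so tissue and stage cannot be told apart there. In the 4 testes *GNRH1* was between 6.37 and 8.30, below the negative controls of the same samples (7.63 to 19.7), and in liver it was between 1.24 and 9.62. In gill, adipose tissue, spleen, brain and pyloric caeca the values of *GNRH1* crossed the detection level in some fish and not in others. Its pyloric caeca values of 43.6, 13.8, 28.6 and 26.6 stood beside negative controls of 47.4, 16.9, 19.4 and 16.6, so the highest of them is under its own background.

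The other hormone gene, *GNRH*, was near background even in brain. The 4 hatchery brains, the only brains sampled, gave 4.45, 19.2, 15.5 and 42.4 normalized counts in fish 1 to 4 (20.4 ± 16.0), against negative controls of 3.90, 9.14, 7.66 and 8.46. Only fish 4 was over 20, and fish 1 was at its background. Brain was nevertheless higher than the mean of the other tissues (log2 difference 1.57, SE 0.33, adjusted p = 3.63e-05) and higher than 10 of the 14 other tissues. *GNRH* entered the tissue tests only because its brain mean was over 20, so its call in brain is not independent of the filter. Without fish 4 the brain mean was under 20, so the call could not be tested there. Ovary, next in order, did not differ from brain by the test (0.69, adjusted p = 0.35). Of the 105 pairs of tissues, 18 passed the test for *GNRH*, against 50.3% of 22785 comparisons over all genes and pairs.

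Brain was the tissue in which most of the family stood high. There 6 of the 8 genes were higher than the mean of the other tissues, against 33.6% of the 217 panel genes tested that were higher in brain. The 5 receptor genes among them were *GNRHR1a*, *GNRHR1b*, *GNRHR4a*, *GNRHR4b* and *GNRHRa*. The other was *GNRH*, which entered the tests through its brain mean alone. The median log2 difference over the 8 family genes was 1.56, beside -0.058 over all panel genes. *GNRH1* and *GNRHRb* did not pass the test in brain (adjusted p = 0.78 and 0.39).

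*GNRHR1a* gave the largest difference of brain from the other tissues within the family. It measured 534 and 541 normalized counts in the brains of males 1 and 2, and 158 and 177 in those of females 3 and 4 (353 ± 214, n = 4), a log2 difference of 4.86 (SE 0.25, adjusted p = 1.77e-27). The 2 ovaries had 213 and 282 (247 ± 48.6), which was 4.31 over the mean of the other tissues (SE 0.32, adjusted p = 4.94e-20). Brain and ovary did not differ by the test (0.51, adjusted p = 0.47), and brain was higher than the 13 other tissues. Outside brain, ovary and the gills of the 2 females, every kept tissue sample but 2 lay under 20 for this receptor, the exceptions being a pyloric caecum at 24.5, with negative controls at 47.4, and the testis of mature fish 8 at 22.1, with negative controls at 19.7.

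*GNRHR1b*, by contrast, was detected in brain without ovary. The brains held 31.2, 53.9, 77.6 and 75.1 normalized counts (59.4 ± 21.6), a log2 difference of 2.97 (SE 0.33, adjusted p = 4.46e-12), and brain exceeded each of the 14 other tissues. The ovaries held 7.20 and 6.47, at or below their negative controls of 8.36 and 10.8. The testes gave 19.9, 13.8, 17.6 and 8.30. Thus the paralogs *GNRHR1a* and *GNRHR1b*, as named on the panel, were both high in brain and differed in ovary.

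The *GNRHR4* receptors also differed in where they passed 20. *GNRHR4a* measured 32.9 and 36.7 in the ovaries (34.8 ± 2.66, log2 difference from other tissues 2.23, SE 0.51, adjusted p = 1.15e-04). In brain it spread from 2.23 in fish 1 through 18.6 and 27.8 to 40.0 in fish 4 (log2 difference 1.54, SE 0.40, adjusted p = 6.65e-04), a call lost without fish 4 (adjusted p = 0.064). In eye it was higher than the mean of the other tissues as well (log2 difference 1.15, SE 0.32, adjusted p = 0.0023), through the wild fish described further on.

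*GNRHR4b* gave 14.5, 28.9, 41.6 and 35.1 in the brains (30.0 ± 11.6) and 36.1, 25.5, 24.3 and 30.4 in the testes (29.1 ± 5.39). Both were over the mean of the other tissues, by 1.43 (SE 0.33, adjusted p = 1.32e-04) and 1.38 (SE 0.35, adjusted p = 7.06e-04), and they did not differ from each other (0.05, adjusted p = 0.94). Liver followed with 34.2, 16.2, 20.7 and 28.9 in hatchery fish and 14, 42.2 and 24.4 in wild fish 6 to 8 (25.8 ± 10.1, log2 difference 1.17, SE 0.29, adjusted p = 2.77e-04). The liver negative controls were 15.1 to 26.7, and 2 of the 7 liver values were below those of their own sample. Pyloric caeca also passed (0.98, SE 0.38, adjusted p = 0.04), a call lost under 7 alternatives. The values of *GNRHR4b* there were 13.8 to 28.6, with a mean of 22.8. The negative controls were 47.4, 16.9, 19.4 and 16.6 in fish 1 to 4, so these values lay near background. Testis and liver were likewise the tissues in which the liver list (*APOC1a*, *APOC1b* and *SPP2*) summed highest, at 306000 to 431000 and 440000 to 1270000. *SPP2* was 15.9 to 20.3 in testis and 16000 to 69200 in liver, so the sum in testis came from the apolipoprotein probes, and its part in the *GNRHR4b* levels was not tested.

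*GNRHRa* and *GNRHRb* had their highest means in skeletal muscle. *GNRHRb* measured 660 and 415 normalized counts in the muscle of hatchery fish 1 and 3, and 211, 117, 95.4 and 69.6 in wild fish 5 to 8 (261 ± 232, n = 6). The log2 difference from the other tissues was 4.11 (SE 0.25, adjusted p = 4.52e-24), and muscle was higher than each of the 14 others. The next tissue, gill, lay 3.06 lower (adjusted p = 1.47e-08). *GNRHRb* also reached 46.3, 39.8, 22.6 and 30.8 in the livers of the hatchery fish and 34.9, 10.5 and 17.2 in those of wild fish 6 to 8 (log2 difference 0.73, SE 0.31, adjusted p = 0.037, lost under 6 alternatives). The ovaries had 22.6 and 31.3.

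*GNRHRa* reached 71.8 and 56.6 in hatchery muscle and 39.7, 15.4, 5.35 and 6.25 in wild muscle (32.5 ± 27.9). Muscle was over the mean of the other tissues (2.03, SE 0.35, adjusted p = 7.09e-07). Brain had the same distance from the others (2.03, SE 0.40, adjusted p = 1.29e-05) with far less spread, at 35.6, 23.7, 36.8 and 31.8 (32.0 ± 5.89), and the pair did not differ (0.01, adjusted p = 0.99). In testis the values were 9.97, 47.8, 32.4 and 13.8, with a difference from the other tissues of 1.74 (SE 0.43, adjusted p = 5.34e-04) that was lost without fish 2 (adjusted p = 0.07). In muscle 2 of 8 family genes were higher than in the other tissues, against 18.4% of panel genes. *MYF5a* and *MYF5b*, the myogenic markers of the panel, summed to 202 to 429 in muscle, and to 268 to 523 in the 2 ovaries, where *GNRHRb* was 22.6 and 31.3.

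Across the 15 tissues, 120 tests of a family gene gave 47 calls, 23 higher and 24 lower, and 22 of the 23 higher calls had a mean of at least 20. At an unadjusted p under 0.05 there were 52. Of all 3255 tests over the panel, 52.3% passed, so the family's share of calls was below that of the panel. In ovary 3 of 8 family genes were higher (*GNRH1*, *GNRHR1a* and *GNRHR4a*), against 44.2% of panel genes.

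Gill had 5 higher calls, none of which held without 2 of the fish. *GNRHR1b* in gill was 6.03 and 6.49 in males 1 and 2, 112 and 36.4 in females 3 and 4, and 7.10, 10.3 and 5.63 in wild fish 5 to 7. *GNRH1* was 24.1 and 11.7, 140 and 74.4, and 23.1, 16.3 and 19.7 in the same order. The other family receptors had the same shape, with female 3 highest and female 4 next. Without these 2 gills none of the 5 calls held, with log2 differences of -0.37 (*GNRH1*), -0.15 (*GNRHR1b*), -0.06 (*GNRHR4a*), 0.11 (*GNRHR4b*) and -0.45 (*GNRHRb*).

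The same 2 gill samples were also raised for panel genes that were low in the male gills. Of 66 genes under 20 in the gills of both males, 60 were at or above 20 in female 3 and 46 in female 4, with medians of 49.8 and 28.6, while the medians in the other 5 gills were 5.16 to 9.05 and at most 3 of the 66 genes reached 20. The negative controls were not raised in these gills (12.3 and 13.9, against 9.17 to 16.4). The pituitary list (*CGAa*, *CGAb*, *GHa* and *GHb*) summed to 433 and 132 there and to 17.8 to 32.0 in the other gills. Of these genes *CGAa* was 131 and 53.7 there, and 818 and 1020 in the ovaries. Other lists spread over the hatchery gills too, the *OTX2* and *SIX6* probes from 48.7 to 369 and the *MYF5* probes from 30.5 to 269. The probes of the follicle-stimulating and luteinizing hormone receptors ran from 130 to 239, and the *CEBPA* and *PPARG* probes from 2110 to 2350. The part of the tissues these lists mark in the gill values was not tested.

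The brain samples varied in marker genes as well. The pituitary list summed to 1240, 43.0, 412 and 71.0 in the brains of fish 1 to 4, chiefly through *GHb*, a growth hormone gene, at 783, 12.8, 243 and 27.7. *SIX3a*, which encodes a forebrain transcription factor, was 3.34, 84.7, 219 and 50.6, and *OTX2c*, another forebrain regulator, 5.57, 98.2, 166 and 212. *SIX3a* and *OTX2c* were chosen after their values were seen, and the other *SIX3* and *OTX2* probes are not given singly. The list of *OTX2* and *SIX6* probes together was nearly equal in the male brains (338 and 340) and higher in the female ones (562 and 724). Its probes other than *OTX2c* were thus together higher in brain 1 than in brain 2, the other way from *OTX2c*. Brain 1 was highest in the pituitary list, and it was also lowest in *GNRH*, *GNRHR1b*, *GNRHR4a* and *GNRHR4b*. *GNRHR1a*, at 534, and *GNRHRa* were not lowest in that brain. Whether the dissections differed was not tested.

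Of the 18 probes for transcription regulators of GnRH neurons or gonadotropes (*SIX3*, *SIX6*, *OTX2*, *EGR1*, *AES* and *TLE1*, from work in mouse), 12 were higher and 1 lower in brain than in the other tissues. Their median was 0.949 on the log2 scale, beside 73 higher and 70 lower of 217 panel genes and a median of -0.058. In eye, 13 of the 18 probes were higher and 0 lower, with a median of 0.966. There 64 panel genes were higher and 42 lower, and 1 of the 8 family genes was higher. Of the hypothalamic-pituitary-gonadal list, *CGAb*, named for the alpha subunit shared by the pituitary glycoprotein hormones, was higher in brain (1.90, adjusted p = 2.26e-04). It measured 69.0 normalized counts in the brain of fish 1, and 0.642, 6.53 and 5.71 in those of fish 2 to 4. The negative controls were 3.90 in brain 1 and 7.66 to 9.14 in the others, so only brain 1 was above background. *ESR1*, *FSHR* and *PGRa*, which encode receptors for oestrogen, follicle-stimulating hormone and progesterone, were lower in brain. *CGAb* was also higher in muscle (2.12, adjusted p = 1.59e-06), where *GNRHRa* and *GNRHRb* stood high.

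The likeness of tissue profiles was measured as Pearson's r of the mean log2(normalized count + 1) over the 15 tissues, which share fish and scaling, among 217 panel genes. *GNRH1* was most like *MNAT1* (r = 0.93), *LATS1b* (0.92) and *LATS1a* (0.90), all with their highest mean in ovary. *GNRHR1a* was most like *PRKAR2Bb* (0.84), *GNRHR4a* (0.82) and *OTX2b* (0.82), and *GNRHR4a* most like *GREB1La* (0.84), *GNRHR1a* (0.82) and *PRKAR2Ba* (0.80). These profiles are high in brain, in ovary or in both. Spearman's rank correlations were lower, at 0.62, 0.64 and 0.61 for the genes named with *GNRH1*, in the same order. They were 0.71, 0.77 and 0.56 for those named with *GNRHR1a*, and 0.74, 0.77 and 0.54 for those named with *GNRHR4a*.

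*GNRHR1b* was most like *DLK1a* (0.87), *GHb* (0.84) and *RLN3Ab* (0.82), and *GNRH* most like *GHa* (0.82), *EGR1c* (0.76) and *DLK1a* (0.74). *GNRHR4b* was most like *TLE4c* (0.88), *GHSRb* (0.85) and *OTX2a* (0.82). *GNRHRa* was most like *MC4Rd* and *OTX2b* (0.81 each) and *CGAb* (0.71), and *GNRHRb* was like *MYF5b* (0.81) and *CGAb* (0.79). The highest mean was in brain for *DLK1a*, *GHa*, *GHb*, *RLN3Ab*, *MC4Rd* and *OTX2b*, and in muscle for *CGAb*. Spearman's correlations of these pairs ran from 0.61 to 0.91. *GNRH*, *GNRHR1b*, *GNRHR4a*, *GNRHRa* and *GNRHR4b* were at or below the mean of their negative controls in 80, 79, 79, 74 and 56 of 96 samples. *EGR1c*, *CGAb* and *TLE4c* had highest tissue means of only 23.6, 22.8 and 36.9. The part of shared background in these likenesses was not tested.

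Ovary and testis, which ask how the family differs between the sexes in the gonad, were also compared directly, with 2 ovaries of immature hatchery females against testes of 2 immature hatchery and 2 mature wild males. Of 6 family genes tested 4 passed, against 76.5% of 187 panel genes. *GNRH1* was higher in ovary by 8.52 on the log2 scale (SE 0.31, adjusted p = 1.99e-06), where the testis values are background, so the size measures the distance of ovary from background. *GNRHR1a* was higher by 4.63 (SE 0.56, adjusted p = 3.80e-04), with 6.23, 5.31, 9.46 and 22.1 in testes 1, 2, 7 and 8 against 213 and 282. *GNRHR4a* was higher by 2.33 (SE 0.31, adjusted p = 6.26e-04), with testis values of 5.31 to 8.72. The testis values of both receptors were also near the negative controls of their samples (7.63 to 19.7), so these sizes too are distances from background. The ovaries lay above every testis for these 3 genes, and the share of panel genes that separated likewise was not counted. All 3 entered the test only through their ovary mean, so these calls are not independent of the filter.

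*GNRHR4b* went the other way, at 4.12 and 14 in ovary against 24.3 to 36.1 in testis (log2 difference -1.67, SE 0.51, adjusted p = 0.02), and this call was lost with 4 reference genes and without ovary 3. *GNRHRa* (-1.65, adjusted p = 0.063) and *GNRHRb* (0.83, adjusted p = 0.053) did not pass.

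Of the pathway genes beside them, *CGAa* (818 and 1020 in ovary against 5.31 to 6.23 in testis, log2 difference 7.31) and *ESR1* (15200 and 15900 against 252 to 1890, log2 difference 3.92) were higher in ovary. *FSHR* (-4.31), *LHR/LHCGR*, the luteinizing hormone receptor (-5.79), and *PGRa* (-4.44) were higher in testis.

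Whether the family changes with male maturity was asked in testis and in somatic tissues. The testes of mature wild fish 7 and 8 held 24.3 and 30.4 of *GNRHR4b*, and those of immature hatchery fish 1 and 2 held 36.1 and 25.5 (log2 difference -0.18, adjusted p = 0.76). *GNRHRa* was 32.4 and 13.8 against 9.97 and 47.8 (-0.26, adjusted p = 0.84). Neither of the 2 genes tested passed in edgeR, limma or DESeq2, none had an unadjusted p under 0.05, and 1.18% of the 169 panel genes passed. Habitat, population and maturity cannot be told apart in this comparison.

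In eye, heart, kidney and muscle the 2 mature wild males were compared with the 2 immature ones. None of 4 tests of a family gene passed, in edgeR, limma or DESeq2, and 0.0% of 564 panel tests did. In muscle *GNRHRa* was 5.35 and 6.25 in the mature against 39.7 and 15.4 in the immature fish (log2 difference -2.13, unadjusted p = 0.02, adjusted p = 0.79), which was the only family test at an unadjusted p under 0.05. *GNRHRb* was 95.4 and 69.6 against 211 and 117 (-0.98, adjusted p = 0.79). The muscle values of mature fish lay below those of immature fish for both receptors without passing the test. These are the same 2 fish against 2, and the share of panel genes that separated likewise was not counted. The muscle of fish 5, the highest of the 4, also had the highest negative controls, 30.1 against 8.79 to 10.1.

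**Figure D2:**
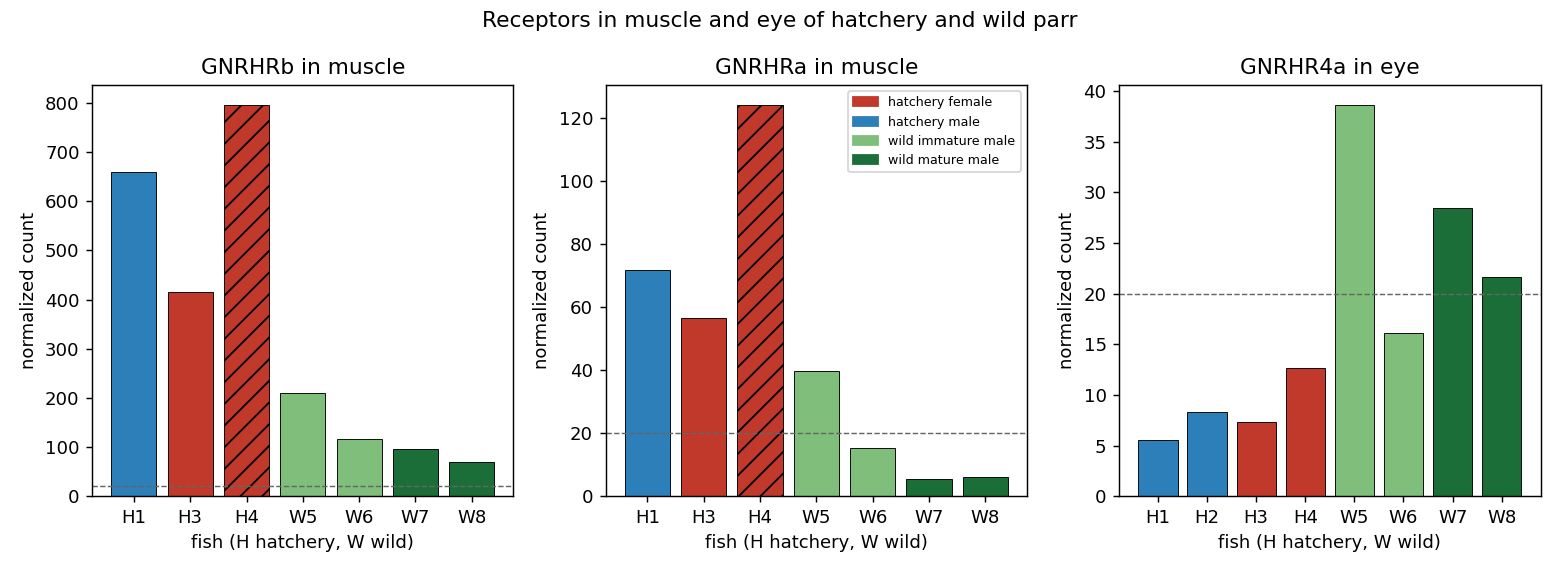
Normalized counts in each parr of *GNRHRb* and *GNRHRa* in muscle and *GNRHR4a* in eye, hatchery fish 1 to 4 beside wild fish 5 to 8, as bars from 0. The hatched bar is the muscle of hatchery fish 4, left out of the tissue tests for its scaling factor. For *GNRHRb* the hatchery bars (660 and 415, and 796 in fish 4) are above all wild bars (69.6 to 211), and for *GNRHR4a* every wild eye (16.2 to 38.7) is above every hatchery eye (5.54 to 12.6).

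Wild and hatchery parr were compared in 6 tissues, with 13 tests of a family gene in 5 of them. Of these 2 passed, and 4 had an unadjusted p under 0.05, against 42.4% of 967 panel tests that passed. Both were in eye, where 56.1% of 171 panel genes passed. *GNRHR4a* in eye was 5.54, 8.34, 7.35 and 12.6 in hatchery fish 1 to 4 and 38.7, 16.2, 28.4 and 21.7 in wild fish 5 to 8 (log2 difference 1.61, SE 0.36, adjusted p = 0.003). The hatchery values lie at or below their negative controls (11.1 to 13.9) and the wild ones above theirs (9.02 to 13.4). *GNRH1* was higher in the hatchery eyes, at 26.3, 21.3, 31.0 and 20.2 against 9.03, 17.2, 10.1 and 6.90 (log2 difference -1.19, SE 0.32, adjusted p = 0.0091). Among the wild eyes only that of fish 6 was above its negative controls for *GNRH1*, so this size is in part a distance from background. Neither gene's groups overlapped, and the share of panel genes that separated likewise was not counted. *GNRHR4a* entered the test only through its wild mean and *GNRH1* only through its hatchery mean, so neither call is independent of the filter. The hatchery eyes include 2 females and the wild eyes 2 mature males, and with only immature males *GNRHR4a* passed (adjusted p = 0.045) and *GNRH1* did not (-0.82, adjusted p = 0.23). With negative controls subtracted, neither gene reached the mean of 20 needed for a test, so neither call stands there.

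The eyes differed in other markers too. The eye list (*OTX2a* to *OTX2d*, *SIX6a* and *SIX6b*) summed to 75.8 to 172 in hatchery and 337 to 532 in wild eyes, the adipose list (*CEBPA* and *PPARG* probes) to 1120 to 2160 and 478 to 616, and the *MYF5* probes to 34.6 to 188 and 19.3 to 63.3. Of the hypothalamic-pituitary-gonadal list, *ESR1* (-1.34) and *LHR/LHCGR* (-1.09) were lower in wild eyes. Of the regulators, 11 of 17 tested were higher and 2 lower in wild eyes, beside 42 higher and 54 lower of the 171 panel genes. The part of tissue make-up in the eye results was not tested. Each cartridge, the unit of 12 samples run together, held parr of 1 habitat, so cartridge, population and habitat cannot be told apart.

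Muscle had 2 hatchery and 4 wild fish once the sample of hatchery fish 4 was left out, under the minimum of 3 fish set for the comparison of habitats. Tested all the same, *GNRHRb* (log2 difference -2.14, SE 0.48, adjusted p = 0.024), *GNRHRa* (-2.14, SE 0.66, adjusted p = 0.036) and *GNRH1* (-1.49, SE 0.39, adjusted p = 0.031) were lower in the wild fish, where 31.6% of 155 panel genes passed. In the left-out sample *GNRHRb* was at 796 normalized counts. With it kept, *GNRHRb* was lower in wild muscle, with a log2 difference of -2.35 (SE 0.44, adjusted p = 0.005), as were *GNRHRa* at -2.46 (SE 0.62, adjusted p = 0.013) and *GNRH1* at -2.16 (SE 0.50, adjusted p = 0.011), where 38.0% of 158 panel genes passed. *GNRH1* in muscle was 29.9 and 29.5 in hatchery fish 1 and 3, and 12.4, 10.3, 10.7 and 9.38 in wild fish. The wild values stood near or below negative controls of 30.1, 8.79, 9.47 and 10.1 in fish 5 to 8. The *MYF5* probes overlapped between the habitats (272 to 297 in hatchery and 202 to 429 in wild fish), while the adipose list was 668 to 909 in hatchery and 106 to 313 in wild muscle. Its part in the muscle values was not tested.

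In gill, the 6 family genes tested between habitats had log2 differences of -1.36 to -2.56 and adjusted p between 0.10 and 0.18, with the gills of females 3 and 4 highest in each. In kidney *GNRH1* was 8.32, 11.9, 11.9 and 8.38 in hatchery fish and 44.3, 25.5, 13.2 and 10 in wild fish (1.11, adjusted p = 0.076), where the highest value came from a sample with negative controls of 25.0.

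Female and male hatchery parr were compared in 7 tissues other than the gonads, 2 fish against 2. Of 21 tests of a family gene 7 passed, all higher in females, and 9 had an unadjusted p under 0.05, against 6.94% of 1152 panel tests that passed. Of the 7, 6 were in gill, the tissue described above, where 25.7% of 210 panel genes passed. There *GNRHR1b* was higher in females by 3.54 on the log2 scale (SE 0.69, adjusted p = 0.034) and *GNRH1* by 2.62 (SE 0.52, adjusted p = 0.034), and *GNRHR1a*, *GNRHR4a*, *GNRHRa* and *GNRHRb* by 2.68 to 3.38. Over the 210 panel genes, 50 were higher and 4 lower in the female gills, with a median log2 difference of 0.362. The 2 female gills are the 2 in which panel genes low in the male gills were raised, so sex and that rise cannot be told apart. None of the 7 calls held without male 1 or without male 2. In each of the 7 the male mean was under 20, so the gene entered the test only through the females. The direction of these calls is therefore not independent of the filter. The brain and gill samples of each hatchery fish ran on a cartridge of their own, so fish and cartridge cannot be told apart here.

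The remaining call was *GNRH1* in adipose tissue, at 6.77 and 8.10 in the males and 48.1 and 64.2 in the females (log2 difference 2.88, SE 0.39, adjusted p = 0.04). The call was lost with limma (adjusted p = 0.074), without the filter (0.055), with negative controls subtracted (0.14), and without male 1 (0.31) or male 2 (0.17). The negative controls were 3.38 and 9.77 in the males and 14.2 and 6.51 in the females. *CGAa*, whose highest tissue mean was in ovary, was 1.13 and 1.91 against 19.5 and 24.1 there (adjusted p = 0.059), and *ESR1* was 82.3 and 61.0 against 197 and 262 (adjusted p = 0.097). Neither passed the test, and both were chosen after their values were seen. The *FSHR* and *LHR/LHCGR* probes together (9.62 to 24.6 in females, 10 to 12.4 in males) overlapped between the sexes, as did the *MYF5* probes (26.6 to 28.9 and 23.7 to 35.7). The adipose list was lower in the female samples (9480 to 15000 against 16800 to 19400), and whether ovary tissue was among them was not tested.

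**Figure D3:**
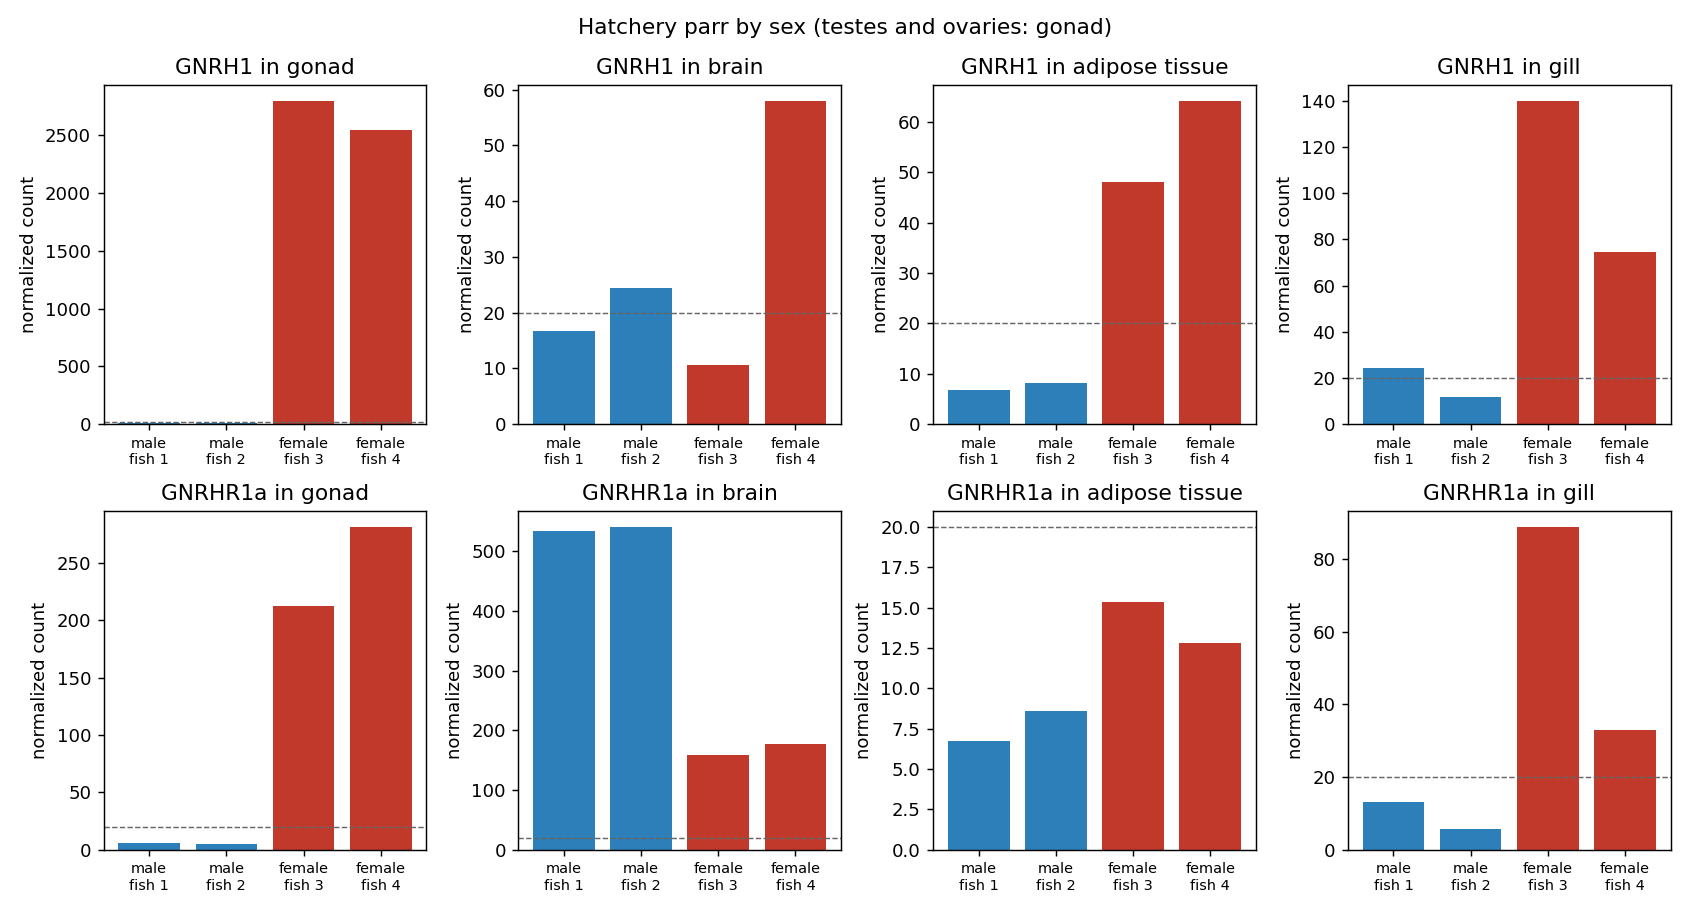
Normalized counts of *GNRH1* and *GNRHR1a* in gonad, brain, adipose tissue and gill of hatchery parr, 1 bar per fish from 0, with males 1 and 2 and females 3 and 4, and the dashed line at 20. *GNRH1* is at 2796 and 2545 in the ovaries and at background in both testes, while *GNRHR1a* is 534 and 541 in the male brains and 158 and 177 in the female brains.

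In brain the values of *GNRHR1a* lay the other way round from the gonad. They were 534 and 541 in the males and 158 and 177 in the females, a log2 difference of -1.68 (SE 0.25, unadjusted p = 0.0017), which did not pass after adjustment (adjusted p = 0.28) and did with DESeq2 (adjusted p = 6.25e-05). The difference between sexes could itself be compared between tissues, in 28 pairs of tissues with 224 tests of a family gene, of which 51 passed, against 18.5% of 6104 panel tests. For *GNRHR1a* the female-to-male difference in brain was 7.07 lower than that in the gonad (log2, SE 0.75, adjusted p = 5.32e-08) and 4.42 lower than that in gill (SE 0.70, adjusted p = 3.47e-04). The gonad size includes the distance of ovary from testis values near background, and the gill size rests on the raised gills of the 2 females. These tests treated tissues of the same fish as independent samples. In brain the other receptors were not ordered this way, with *GNRHR1b*, *GNRHR4a* and *GNRHR4b* at log2 differences of 0.83, 1.62 and 0.80 (adjusted p = 0.84 each).

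During early development 3 family genes reached the detection level in a stage, *GNRH1*, *GNRHR1a* and *GNRHRb*, and each had its own course. The other 5 stayed under 20 in every stage mean (3.85 to 15.4). These samples are whole fish, so a change of a small organ and a change of its share of the body cannot be told apart.

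**Figure D4:**
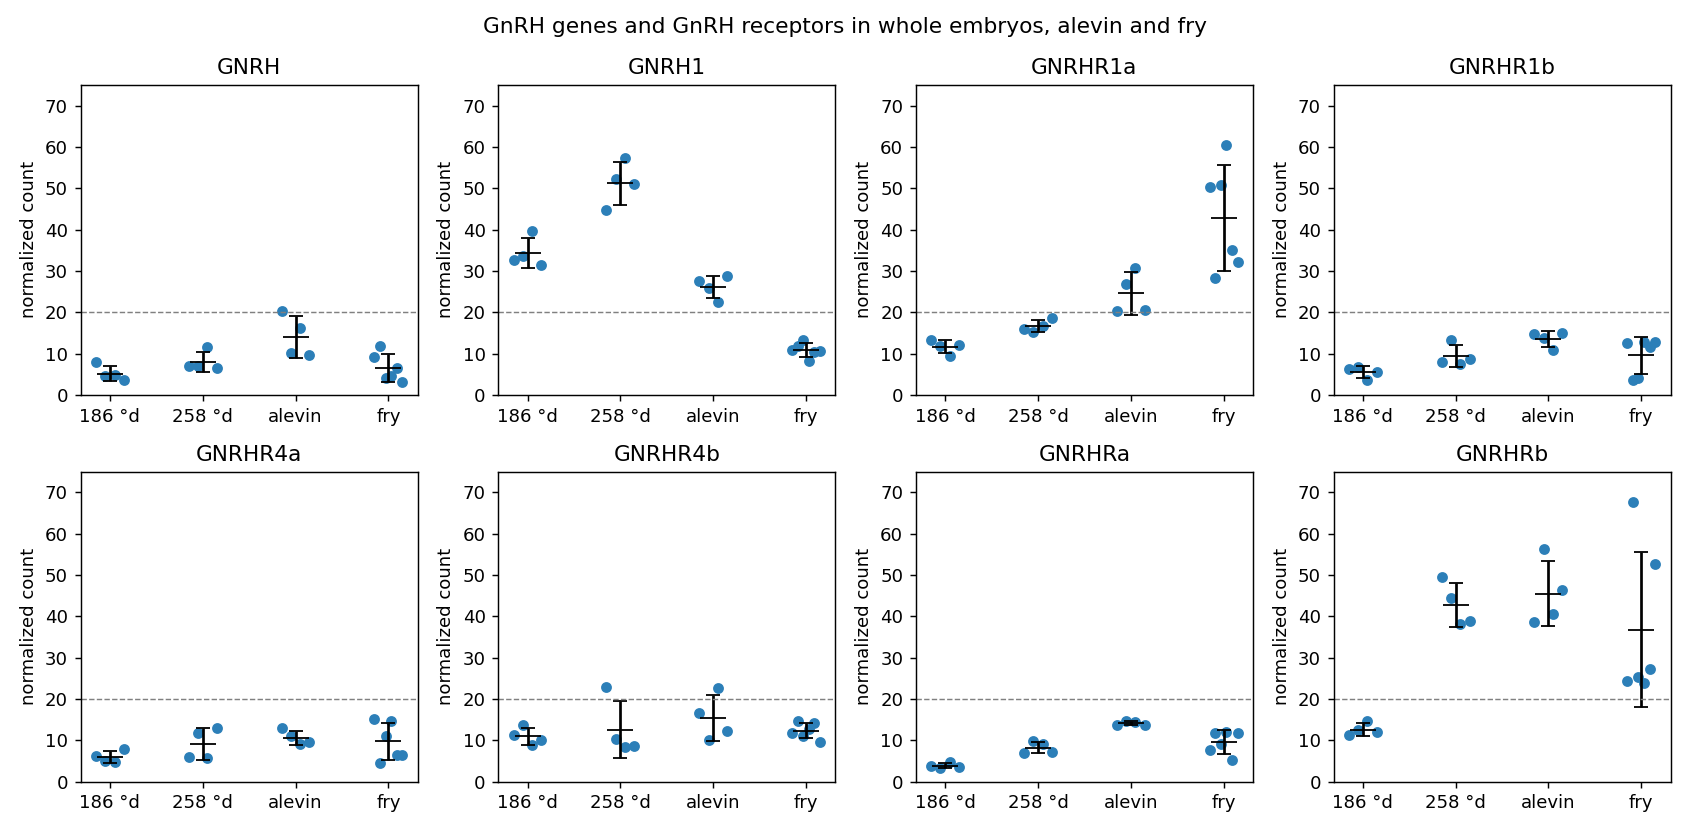
Normalized counts of the 8 GnRH family genes in whole 186 °d embryos, 258 °d embryos, alevin and fry, 1 point per fish with the mean and SD, and a dashed line at 20. *GNRH1* is highest in 258 °d embryos (51.3) and is 10.9 in fry, while *GNRHR1a* has its highest stage mean, 42.8, in fry and *GNRHRb* lies above 20 from 258 °d on.

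*GNRH1* was 32.7, 33.6, 39.6 and 31.5 in the 186 °d embryos (34.3 ± 3.60) and 44.6, 52.2, 57.2 and 51.0 in the 258 °d embryos (51.3 ± 5.19). It was 27.6, 25.8, 22.6 and 28.7 in alevin (26.2 ± 2.67) and the fry were at 10.9, 11.9, 13.2, 8.26, 10.4 and 10.7 (10.9 ± 1.64). No stage overlapped another, and the share of panel genes for which this held was not counted. The rise between the embryos was 0.58 on the log2 scale (SE 0.13, adjusted p = 0.0018, but 0.073 once the negative controls were taken off), the step to alevin -0.98 (SE 0.14, adjusted p = 3.58e-05) and the step to fry -1.25 (SE 0.16, adjusted p = 1.78e-06). The negative controls averaged 7.19, 9.72, 15.5 and 13 in the 4 stages, so *GNRH1* in fry was at background.

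*GNRHRb*, which was highest in muscle among the parr tissues, was 11.2, 12.5, 14.8 and 12 at 186 °d (12.6 ± 1.55) and 49.6, 44.5, 38.2 and 38.8 at 258 °d (42.8 ± 5.38), a rise of 1.75 (SE 0.30, adjusted p = 1.48e-04). The alevin had 38.6, 56.2, 40.6 and 46.4 (45.5 ± 7.89), and the step to them did not pass (0.09, adjusted p = 0.82). The fry were 24.3, 67.6, 25.4, 23.9, 27.2 and 52.6, with 2 fish within or over the range of alevin and 4 below it, and the step did not pass (-0.30, adjusted p = 0.32). Without fry 2, however, the step to fry passed (-0.58, adjusted p = 0.025).

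*GNRHR1a*, which was highest in brain and ovary among the parr tissues, was under 20 in all embryos (9.51 to 18.7), 20.2, 26.7, 30.7 and 20.5 in alevin (24.5 ± 5.09), and the 6 fry were at 50.3, 28.3, 50.7, 60.5, 35 and 32.2 (42.8 ± 12.8). The step from alevin to fry was 0.80 (SE 0.21, adjusted p = 0.0025, and 0.051 with the cartridge as a block), while those between the embryos (0.50, adjusted p = 0.13) and to alevin (0.57, adjusted p = 0.058) did not pass. The negative controls in alevin (15.5) stand close to these alevin values.

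The 3 stage steps gave 2, 1 and 2 calls among the 3 family genes tested, against 32.0%, 49.4% and 62.9% of 178 panel genes, and 3 genes are too few to set against these shares. Of the hypothalamic-pituitary-gonadal list, *PGRa* was higher at 258 °d than at 186 °d (0.76, adjusted p = 0.019). From 258 °d to alevin *PGRa* was higher (1.04, adjusted p = 6.01e-04) and *LHR/LHCGR* lower (-0.87, adjusted p = 1.07e-04), and neither passed from alevin to fry. Of the 15 regulators tested, 2, 2 and 1 were higher and 2, 7 and 10 lower in the 3 steps.

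Diet was compared in 4 whole fry of 1320 °d. *GNRHR1a* was 50.7 and 60.5 on the normal and 35 and 32.2 on the low fat diet (log2 difference -0.73, adjusted p = 0.63), and *GNRHRb* 25.4 and 23.9 against 27.2 and 52.6 (0.71, adjusted p = 0.66). Neither passed in edgeR, no family gene had an unadjusted p under 0.05, and 0.581% of 172 panel genes passed. For *GNRHR1a* the 2 diets did not overlap, in 2 fish each, and the share of panel genes that did likewise was not counted.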

How the data were processed

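Counts of 220 genes and 8 negative and 6 positive control probes per sample were deposited by the authors as raw nCounter counts. The authors also deposited a normalized signal of 211 genes, for which nSolver had scaled every sample by 6 reference genes (their geometric mean), namely *vdraa*, *vdrab*, *rxrbaa*, *rps20*, *prkar1aa* and *ef1ac*. Raw counts multiplied by the same factor gave the levels reported. They differed from the deposited signal by at most 0.0094% over 7426 values of at least 100 counts. Every sample column had its sample (0 had none).

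The test on raw counts was the quasi-likelihood F test of edgeR (glmQLFTest), with that factor as library scaling and Benjamini-Hochberg adjustment over all genes tested. A gene was tested where the mean of 1 group reached 20 normalized counts. A gene at background in the other group thus entered through the group where it was high, and such calls are not independent of this filter. The 18 whole fish formed 1 fit and 76 tissue samples another. Ovary against testis had its own fit, as had diet in fry, and comparisons within a tissue had 1 fit per tissue. Sex differences were compared between tissues in 1 fit over hatchery parr tissues and gonads. It had no block for fish, so tissues of the same fish were treated as independent samples. p-values measure the spread between these samples, and parr tissues share fish (mean correlation of deviations 0.13 over 317 pairs of the same fish). In the closest pair of replicates, the squared differences averaged 4.16 times the variance from counting noise alone. Tests were checked on simulated data.

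Named are all 8 GnRH family genes, the 3 panel genes most like each in tissue profile, and genes of the hypothalamic-pituitary-gonadal list past a test where a family gene also passed. Results of 2 panel genes are not reported here. *SIX3a*, *OTX2c* and *GHb* in brain, and *CGAa* and *ESR1* in adipose tissue, were chosen after their values were seen. The family and the lists were chosen with earlier results of these data known. Alternatives were TMM scaling, 4 reference genes, DESeq2, limma, no filter, negative controls subtracted, samples of a factor above 3.0 kept, cartridge or fish as a block, other sets of samples, and each sample left out. Software was R 4.3.3 with DESeq2 1.42.0, edgeR 4.0.16 and limma 3.58.1, and Python 3.11.15 with matplotlib 3.10.9, numpy 2.4.6 and pandas 2.3.3.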

Additional observations from a re-analysis of the deposited data

Results flagged for a closer look

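Within groups of 4 to 10 samples, 47 were examined for a value far from the others and 7 had one. Only groups with a value of at least 20 were examined, on unlogged counts, so the rate by chance is not known. The 5 in gill come from the same sample and are not independent. The gill of hatchery female 3 stood apart in 5 receptor genes, with 88.8 normalized counts of *GNRHR1a*, 112 of *GNRHR1b*, 94.2 of *GNRHR4a*, 66.0 of *GNRHR4b* and 43.1 of *GNRHRa*. The other 2 were *GNRHR4b* at 22.8 in 258 °d embryo 1 and *GNRHRb* at 22.1 in the testis of mature wild fish 8.

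Of the 51 tests of a sex difference between tissues that passed, those given here were picked by a rule. The female-to-male difference had to go opposite ways in the 2 tissues with no overlap of the fish. The lack of overlap therefore adds nothing to the tests. For *GNRHR1a* the value in brain minus that in gill was -4.42 and minus that in the gonad -7.07 (log2). For *GNRHR4b* it was higher in brain than in the gonad by 2.55 (SE 0.75, adjusted p = 0.0062) and higher in gill than in the gonad by 3.66 (SE 0.77, adjusted p = 2.86e-04). For *GNRHRa* it was higher in gill than in the gonad by 5.14 (SE 1.04, adjusted p = 1.96e-04), and for *GNRHRb* higher in gill than in liver by 3.35 (SE 0.73, adjusted p = 0.0073). The gill values rest on the samples of females 3 and 4, and these tests treated tissues of the same fish as independent samples. For *GNRHRa* in the gonad, the highest ovary value was 9.26 and the lowest testis value 9.97. The negative controls were 8.36 and 10.8 in the ovaries and 7.63 in that testis, so this separation lay near background.

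The muscle of hatchery fish 4, which enters none of the tissue levels because of its scaling factor, held 106 normalized counts of *GNRH1*, 124 of *GNRHRa* and 796 of *GNRHRb*, with negative controls of 28.8.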

How the results depend on the processing

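Of 65 calls on family genes, followed over 1361 values under the alternatives, 21 passed under every alternative in which they were tested. Among them, *GNRH* in brain and *GNRHR4a* between habitats in eye fell under the filter once negative controls were subtracted. *GNRH* also fell under it without fish 4, so that its call in brain depends on this fish. Of the values, 1184 kept both direction and call, 173 lost the call and 4 changed sign. The 4 were the gill calls without the gills of females 3 and 4, chosen after seeing the data: *GNRH1* at -0.37, *GNRHR1b* at -0.15, *GNRHR4a* at -0.06 and *GNRHRb* at -0.45.

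With negative controls subtracted, calls fell from 2 to 1 between the embryos, from 47 to 31 over tissues (all 31 higher) and from 2 to 0 between habitats, where no family gene was left to test in eye. Without the filter, there were 2 calls from 258 °d to alevin in place of 1, and 4 between habitats, and calls were gained for *GNRHRa* between the embryos (1.09, adjusted p = 0.0063) and *GNRH* at the step from alevin to fry, at -1.08 (adjusted p = 0.011). The cartridge as a block left 1 of 2 calls from alevin to fry, since *GNRHR1a* was then at an adjusted p of 0.051. Between habitats, DESeq2 gave 6 calls, samples of a factor above 3.0 kept gave 5 and only immature males 1, and limma gave 4 of the 7 calls between sexes. Detection was also set at the mean plus 2 SD of each sample's negative controls, passed in most samples of a stage or tissue. By that rule 17 pairs of a family gene and a stage or tissue counted as detected, beside 36 with a mean of at least 20. TMM gave 33 tissue calls, 21 higher and 12 lower, and shifted all genes by up to -1.04 in ovary and 1.07 in blood (log2).

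Leaving out 1 sample or fish gave 2 to 2 calls between the embryos, 1 to 2 from 258 °d to alevin (2 without alevin 1, alevin 4, fry 2 or fry 4), 2 to 3 from alevin to fry, 32 to 51 over tissues, 3 to 5 between ovary and testis and 2 to 6 between habitats (6 without fish 2). It gave 0 to 8 between sexes (0 without fish 1 or 2, and 2 without fish 3), 0 to 3 between mature and immature males (3 without fish 6, *GNRHRa* in eye and muscle and *GNRHR4b* in muscle, with the lone immature fish assumed to vary like the others), and 0 between testes and between diets. The cause of these changes was not tested. With the replicate number as a block, the stage steps kept 2, 1 and 2 calls, and same-numbered samples were unrelated (mean correlation -0.0042 over 24 pairs). With the fish as a block, and without blood, tissues gave 48 calls, and 45 without the block. At levels of 20 to 60 normalized counts, next to negative controls of 3.38 to 47.4, the distance from background limits the precision.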
